A study of Mus musculus with 12 samples.

Results

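Growth hormone (GH) reaches the liver through its receptor, and the genes described here are 9 parts of that pathway: the receptor Ghr, the kinase Jak2, the transcription factors Stat5a and Stat5b, the feedback inhibitors Socs2 and Cish, and the transcription factors Bcl6, Cux2 and Onecut1. They were chosen by name, as probe sets annotated to a single gene symbol, and all 9 were found, with 10 probe sets, among 19938 genes with 21789 such probe sets. Socs2 had 2 probe sets and the other genes 1 each.

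In liver, GH binding activates JAK2 at the receptor, JAK2 phosphorylates STAT5, and STAT5 turns on target genes that include its own inhibitors. Male rodents release GH in pulses and females more steadily, and STAT5b carries this difference to the sex-biased genes of the liver. BCL6 is a repressor that is more abundant in male liver and can occupy STAT5 sites. CUX2 is a female-biased factor that represses male-biased genes, and ONECUT1, also called HNF6, is a GH-responsive factor with a DNA-binding domain related to that of CUX2.

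The series measured liver RNA on 12 single-colour Affymetrix Mouse Gene 1.0 ST arrays, 3 in each of 4 groups. All mice were C57BL/6N males of 110 days, killed after a 6 hour fast, and were either wild type (WT) or carried the Lmna G609G knock-in on both alleles (KI). This is a germline change, present in every cell, that models the premature ageing syndrome Hutchinson-Gilford progeria. Starting at 7 weeks each genotype received a control diet (CD) or a methionine-restricted diet (MR), giving the groups WT_CD, WT_MR, KI_CD and KI_MR. Whether the 12 arrays are 12 animals is not stated, so the p values measure the spread between these samples, which may be technical.

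Array medians ranged from 82 to 90 intensity units. Precision is limited by having 3 arrays per group. Hepatocyte markers were bright in every array, with 7 of 8 listed genes measured and summed intensities of 75391 to 90416 units, while 2 pituitary genes summed to 75 to 92 units. KI_CD replicate 1 stood apart: it correlated at 0.9855 on average with its group, against 0.9887 to 0.9942 for the remaining 11 arrays. Calls of the members that moved with it are given with and without it. Whole liver was sampled, so fewer cells of a type and less RNA per cell cannot be told apart.

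Cish and Bcl6 have letters matching the STAT5 motif beside their annotated starts, and these stretches are shown because they are the members' windows that hold it. RefSeq promoter windows (GRCm38.p6, 250 bases before to 50 after a start) were found for 8 of the 9 genes, 13 windows in all. The motif TTCNNNGAA, which reads the same on both strands, was in 3 of these windows and in 8.3% of 32851 windows of the same length. The core ATCAAT, searched on both strands for CUX and ONECUT factors, was in 0 of the 13 and in 7.54% of all windows. The capitals below mark TTCNNNGAA. Cish is shown from chr9:107296409-107296688 on the plus strand, with 250 bases before and 30 after its start. Bcl6 is shown upstream of an inner start, chr16:23981284-23981533, and of its outermost start, chr16:23988853-23989102, both on the minus strand.
Cish: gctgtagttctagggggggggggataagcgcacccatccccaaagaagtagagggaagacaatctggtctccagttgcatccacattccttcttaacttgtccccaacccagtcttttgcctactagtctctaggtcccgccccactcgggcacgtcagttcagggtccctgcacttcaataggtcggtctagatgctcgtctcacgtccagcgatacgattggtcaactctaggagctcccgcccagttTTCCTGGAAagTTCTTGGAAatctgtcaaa
Bcl6 inner start: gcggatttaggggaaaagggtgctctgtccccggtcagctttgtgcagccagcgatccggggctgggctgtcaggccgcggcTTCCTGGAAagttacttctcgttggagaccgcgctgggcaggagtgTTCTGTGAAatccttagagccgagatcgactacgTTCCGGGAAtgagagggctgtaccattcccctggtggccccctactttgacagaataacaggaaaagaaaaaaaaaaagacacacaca
Bcl6 outermost start: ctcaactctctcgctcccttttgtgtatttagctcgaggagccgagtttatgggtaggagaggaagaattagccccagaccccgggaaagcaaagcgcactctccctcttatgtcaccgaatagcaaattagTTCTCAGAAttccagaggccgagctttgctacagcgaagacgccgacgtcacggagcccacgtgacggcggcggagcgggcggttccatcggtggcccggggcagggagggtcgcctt

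The Cish window held TTCCTGGAA at the annotated start itself and TTCTTGGAA 11 bases after it. The inner Bcl6 window held TTCCTGGAA, TTCTGTGAA and TTCCGGGAA, beginning 168, 122 and 88 bases before the start, and the outermost one held TTCTCAGAA 118 bases before it. A match describes these letters and not binding.

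**Figure D1:**
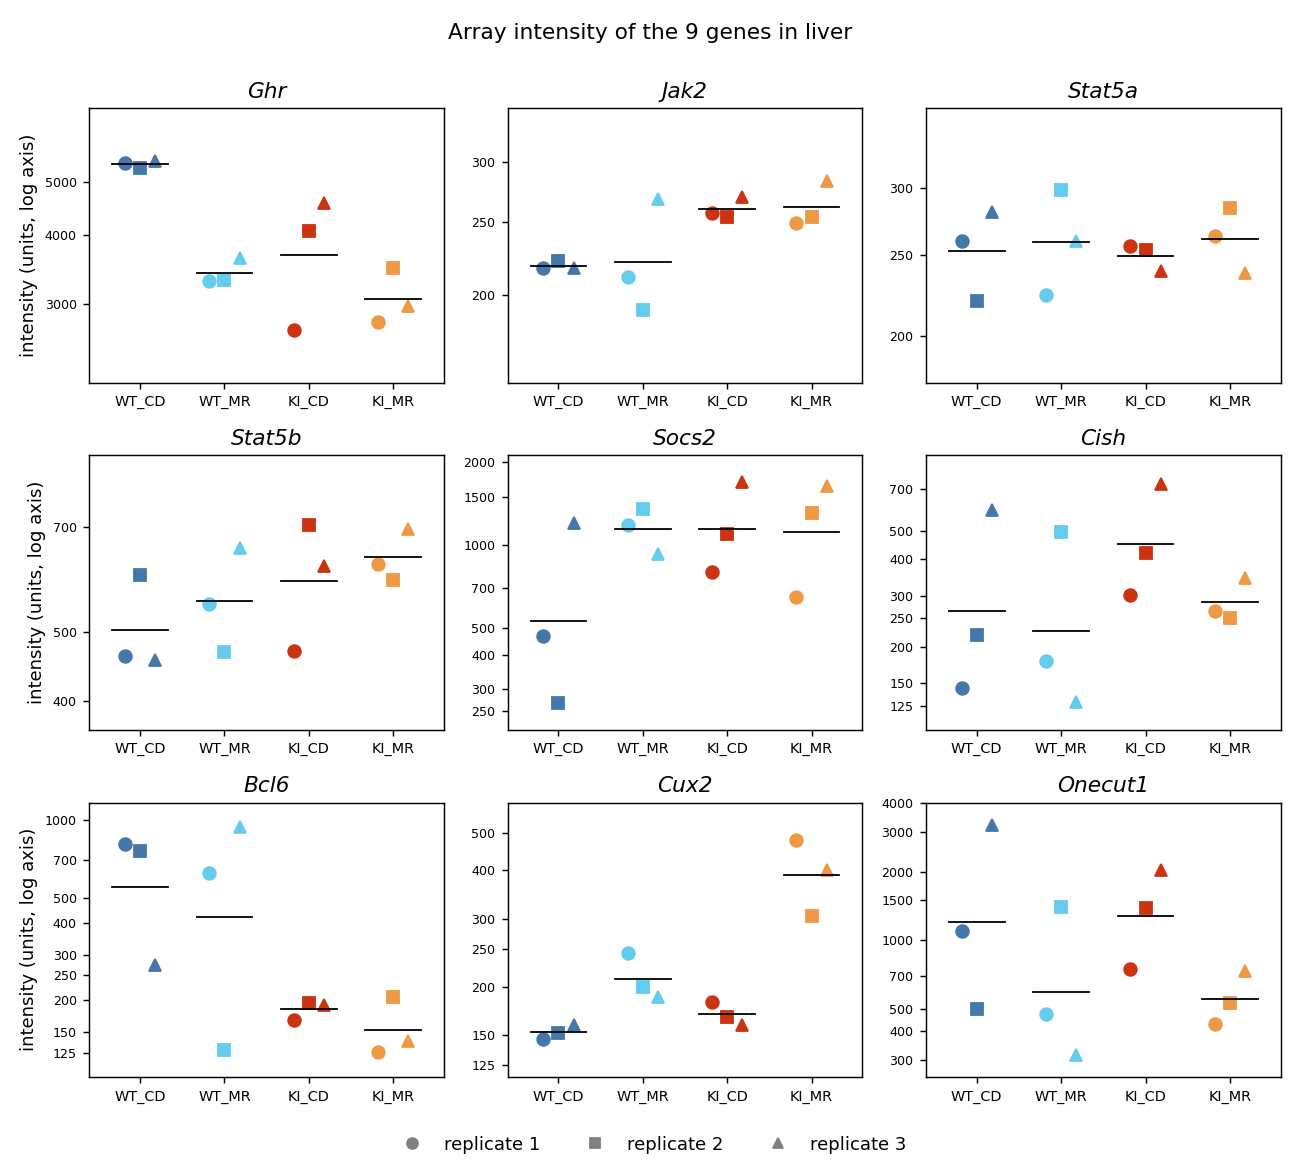
Intensity (units, log axis) of the 9 genes in each array, by group. Each symbol is 1 array, its shape is the replicate number, and the black line is the geometric mean of the 3 arrays. Cux2 is highest in the 3 KI_MR arrays (305 to 479 units), Ghr is highest in the 3 WT_CD arrays (5314 to 5453 units), and Bcl6 lies at or below 206 units in all 6 knock-in arrays.

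Cux2 was the member that changed. Its intensity was 146, 152 and 159 units in WT_CD, 183, 167 and 159 in KI_CD, 245, 200 and 188 in WT_MR, and 479, 305 and 400 in KI_MR. Every KI_MR array was above every other array, and every WT_MR array was above every control-diet array of either genotype. WT_CD and KI_CD differed by 0.15 ± 0.15 (log2 difference ± SE from limma, n = 3 arrays per group; adjusted p = 0.682), with both groups at 159 units where they met.

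Restriction raised Cux2 in knock-in liver 2.29-fold, a log2 difference of 1.20 ± 0.15 (limma adjusted p = 0.0137). It was the only member past the threshold of 0.05, over all genes, in KI_MR against KI_CD, where 0.176% of all genes passed. In wild-type liver the same contrast gave Cux2 0.46 ± 0.15, which did not pass (adjusted p = 0.326), although the groups did not overlap, like those of Ghr and beside 11.5% of all genes. No member passed in WT_MR against WT_CD by limma, 3 had an unadjusted p under 0.05 (Cux2, Ghr and Socs2, beside 8.19% of all genes), and 0.326% of all genes passed. Averaged over both genotypes, restriction raised Cux2 by 0.83 ± 0.10 (1.78-fold, adjusted p = 0.00454), again as the only member, against 1.21% of all genes. That average call held whichever of the 12 arrays was left out, with adjusted p from 0.000848 to 0.0204.

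On the restricted diet Cux2 was 1.85-fold higher in knock-in than in wild-type liver (0.89 ± 0.15, limma adjusted p = 0.0339), and 0.471% of all genes passed that comparison. It was the 1 member whose groups did not overlap there, beside 16.3% of all genes. The genotype difference averaged over both diets was 0.52 ± 0.10 (adjusted p = 0.0300), where Cux2 was 1 of 9 members and 2.81% of all genes passed. The diet effect on Cux2 was larger in knock-in than in wild-type liver by 0.73 ± 0.21, but this difference did not pass over all genes (adjusted p = 1, unadjusted p = 0.00482). By limma 0 members passed that interaction, 1 had an unadjusted p under 0.05 beside 4.13% of all genes, and 0% of all genes passed.

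Single arrays decided some of these calls of Cux2. For KI_MR against KI_CD the adjusted p was 0.0520 without KI_CD replicate 2, 0.0746 without KI_CD replicate 3 and 0.0690 without KI_MR replicate 3, with the log2 difference between 1.04 and 1.37 over the 12 fits. For KI_MR against WT_MR the limma call ended in 9 of 12 fits: without any WT_CD or WT_MR array, without KI_CD replicate 2 and without KI_MR replicates 1 or 3, with adjusted p up to 0.167 and a difference of 0.74 to 1.06. The average genotype call ended without any WT_CD array, WT_MR replicate 2, KI_CD replicates 2 or 3, or KI_MR replicate 3, with adjusted p up to 0.0803. A fit of the 6 compared arrays alone gave adjusted p = 0.246 for KI_MR against KI_CD and 0.152 for KI_MR against WT_MR, and unmoderated variances gave 0.114 and 0.123.

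Ghr, the receptor itself, was highest in wild-type liver on the control diet. It read 5428, 5314 and 5453 units in WT_CD, 3303, 3307 and 3635 in WT_MR, 2691, 4068 and 4578 in KI_CD, and 2774, 3489 and 2973 in KI_MR. All 9 arrays of the other groups lay below the 3 WT_CD arrays, and those 3 groups overlapped one another, WT_MR and KI_MR included. The log2 difference was -0.66 ± 0.16 in WT_MR against WT_CD (limma adjusted p = 0.158), -0.55 ± 0.16 in KI_CD against WT_CD (adjusted p = 0.253) and -0.27 ± 0.16 in KI_MR against KI_CD (adjusted p = 0.811), none of which passed. Averaged over genotypes the diet difference was -0.46 ± 0.11 (adjusted p = 0.0931).

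The receptor result depended on KI_CD replicate 1, the lowest of its group at 2691 units. In that array the 7 stellate cell markers, all measured, summed to 9008 units, against 5002 to 7458 in the remaining 11, and the 4 of 5 cholangiocyte markers measured summed to 545, against 328 and 347 in its group and 744 in KI_MR replicate 3, the highest. Their part in the Ghr levels was not tested. Without that array Ghr passed in WT_MR against WT_CD (limma adjusted p = 0.00632, the same difference of -0.66) and in the average diet effect (-0.58, adjusted p = 0.00150), while KI_CD against WT_CD went from -0.55 to -0.32 and KI_MR against KI_CD from -0.27 to -0.49. A fit of the wild-type arrays alone also called Ghr (adjusted p = 0.0143).

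Jak2, the kinase bound to the receptor, read 217, 222 and 217 units in WT_CD, 257, 254 and 270 in KI_CD, 211, 191 and 268 in WT_MR, and 249, 254 and 283 in KI_MR. The 2 control-diet groups did not overlap, whereas WT_MR replicate 3 lay within the knock-in range. The average genotype difference was 0.25 ± 0.08 (limma adjusted p = 0.107), and it passed (0.32, adjusted p = 0.0131) without WT_MR replicate 3. The diet differences were 0.02 ± 0.11 in wild-type and 0.01 ± 0.11 in knock-in liver, with 95% intervals from -0.22 to 0.25 and from -0.23 to 0.24.

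Stat5a and Stat5b carry the signal from JAK2 to the nucleus, STAT5b being the main form in liver. Stat5a ranged from 220 to 299 units over all arrays and its 4 groups overlapped, with differences between -0.02 and 0.07 in the 4 pairwise comparisons, each with an SE of 0.12. Stat5b read 463, 600 and 456 units in WT_CD, 547, 468 and 654 in WT_MR, 470, 705 and 618 in KI_CD, and 622, 591 and 696 in KI_MR. The groups overlapped here too, and the average genotype difference of 0.22 ± 0.12 did not pass (limma adjusted p = 0.290). Its 95% interval ran from -0.04 to 0.48. Stat5a and Stat5b are close paralogs and could share signal on an array.

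**Figure D2:**
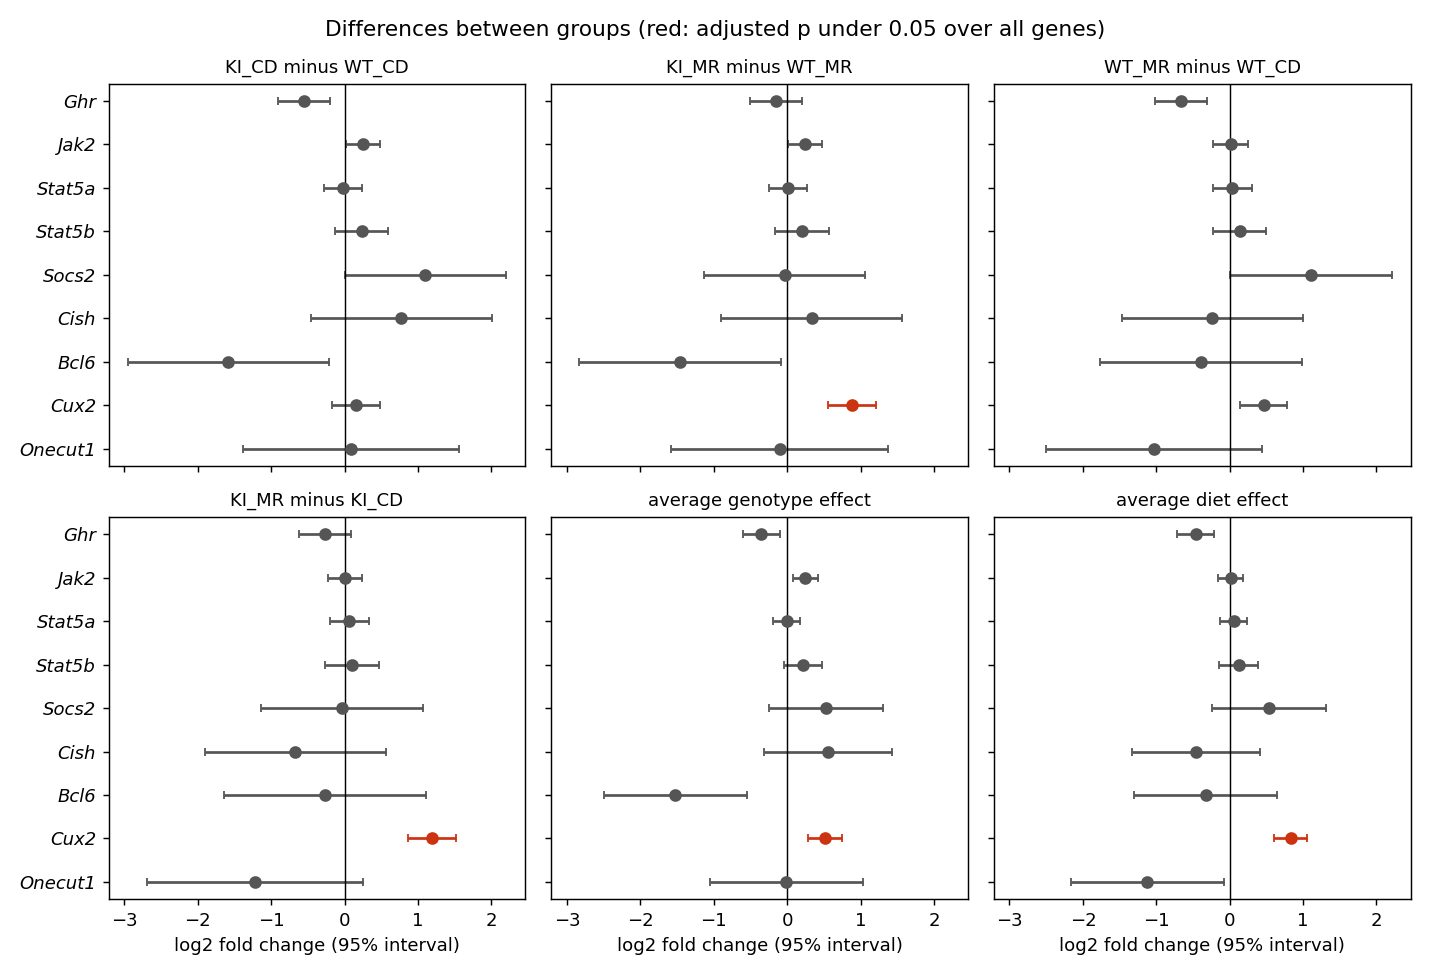
Log2 fold change of each gene in 4 pairwise comparisons and in the averages over diets and over genotypes, from limma. Points are estimates, bars are 95% intervals, and red marks an adjusted p under 0.05 over all genes. Cux2 is the gene marked red, at 0.89 (KI_MR minus WT_MR), 1.20 (KI_MR minus KI_CD), 0.52 (average genotype effect) and 0.83 (average diet effect), and the bars of Socs2, Cish, Bcl6 and Onecut1 are the widest.

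Onecut1, Bcl6, Cish and Socs2 varied most between arrays of one group among the 9 genes, and are set apart here by that spread. The within-group SD was 0.97 for Onecut1, 0.90 for Bcl6, 0.81 for Cish and 0.72 for Socs2 (log2), at percentiles 99.8, 99.7, 99.6 and 99.4 among all genes, whose median SD was 0.13. Cux2 (0.20) and Ghr (0.22) lay at percentiles 82.3 and 86.7. No difference between groups in these 4 genes passed.

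Bcl6, the male-biased repressor, read 808, 762 and 274 units in WT_CD, 625, 128 and 939 in WT_MR, 168, 195 and 191 in KI_CD, and 126, 206 and 139 in KI_MR. Thus 4 of 6 wild-type arrays were at 625 units or more, and the 6 knock-in arrays were all between 126 and 206. WT_CD and KI_CD did not overlap, but the restricted groups did, because of WT_MR replicate 2. In KI_CD against WT_CD Bcl6 was lower by 3.00-fold (-1.58 ± 0.62, limma adjusted p = 0.393) and the average genotype difference was -1.52 ± 0.44 (adjusted p = 0.0925). Neither passed, and without WT_MR replicate 2 the average did (-1.95, adjusted p = 0.0220). Diet gave -0.39 ± 0.62 in wild-type and -0.26 ± 0.62 in knock-in liver.

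In KI_CD against WT_CD, 3 of the 9 members had groups that did not overlap: Bcl6 and Ghr lower and Jak2 higher, beside 19% of all genes. By limma 0 members passed there and 4 had an unadjusted p under 0.05 (those 3 and Socs2, beside 11.2% of all genes), with 0.0802% of all genes past the threshold.

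Macrophage markers were compared with Bcl6 array by array. The 8 Kupffer cell and macrophage markers, all measured, summed to 7305 to 8825 units in WT_CD, 5610 to 10251 in WT_MR, 5526 to 7219 in KI_CD and 6139 to 7040 in KI_MR. The lowest wild-type sum was that of WT_MR replicate 2, where Bcl6 was at 128 units, and the highest was that of WT_MR replicate 3, where Bcl6 was at 939. In WT_CD too, replicate 3 had both the lowest sum (7305) and the lowest Bcl6 (274). Some arrays departed from that order. WT_MR replicate 1 had a sum of 6592 with Bcl6 at 625, while KI_CD replicate 1 (7219) and KI_MR replicate 2 (7040) had higher sums with Bcl6 at 168 and 206. Pearson's r of Bcl6 with the log2 sum was 0.811 over the 12 arrays, with no test, and Bcl6 fell into separate clusters of arrays. No r within a genotype is given for it. The same sum had r of -0.719 with Cish and -0.597 with Socs2, and between -0.445 (Onecut1) and 0.34 (Ghr) with the remaining members. None of the 8 markers passed in any pairwise comparison by limma, and no marker was at 0. Their part in the Bcl6 levels was not tested.

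Cish encodes a STAT5-induced inhibitor of the receptor complex. Its levels were 144, 220 and 590 units in WT_CD, 178, 499 and 129 in WT_MR, 302, 420 and 731 in KI_CD, and 265, 250 and 346 in KI_MR. The 2 wild-type arrays with the highest Cish, WT_CD replicate 3 and WT_MR replicate 2, were the 2 with the lowest Bcl6. Pearson's r of Cish and Bcl6 was -0.899 over the 6 wild-type arrays, which fall into these separate clusters of Bcl6, and 0.342 over the 6 knock-in arrays, with no test. The other 4 wild-type arrays were at 220 units or less and all 6 knock-in arrays at 250 or more. The average genotype difference was 0.55 ± 0.40 (limma adjusted p = 0.411), with a 95% interval from -0.32 to 1.42.

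Socs2, the inhibitor whose loss causes overgrowth in mice, read 467, 267 and 1208 units in WT_CD, 1185, 1360 and 930 in WT_MR, 801, 1097 and 1696 in KI_CD, and 648, 1312 and 1640 in KI_MR. WT_CD replicates 1 and 2 were the lowest of all arrays, and WT_CD replicate 3 lay among the other groups. Against WT_CD the difference was 1.10 ± 0.50 in KI_CD (limma adjusted p = 0.445) and 1.10 ± 0.50 in WT_MR (adjusted p = 0.607), and both comparisons share the WT_CD arrays. The first was 0.60 without WT_CD replicate 2 and 1.69 without WT_CD replicate 3. The second, dimmer probe set of Socs2 ranged from 184 to 316 units and gave 0.23 ± 0.23 and 0.29 ± 0.23 in these comparisons.

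Onecut1 read 1102, 499 and 3221 units in WT_CD, 474, 1398 and 315 in WT_MR, 751, 1386 and 2031 in KI_CD, and 431, 532 and 736 in KI_MR. KI_CD and KI_MR did not overlap, beside 10.7% of all genes, with Cux2 the only other such member. The diet difference averaged over genotypes was -1.12 ± 0.47 (limma adjusted p = 0.401) and did not pass. The genotype difference averaged over diets was -0.01 ± 0.47, with a 95% interval from -1.05 to 1.03.

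Cish and Onecut1 varied together from array to array, and had the highest r of all pairs of members, so it is high by selection. Over the 12 arrays Pearson's r of their log2 levels was 0.794 (Spearman's rho 0.797), 0.868 after subtracting the group means, 0.816 in the 6 wild-type and 0.947 in the 6 knock-in arrays, and 0.680 without the 2 arrays farthest from the median of Cish. For Socs2 and Onecut1 r was 0.862 after subtracting the group means and 0.358 before. For Ghr and Cux2 it was -0.599 after and -0.724 before, with -0.918 in the 6 wild-type and -0.622 in the 6 knock-in arrays. These describe 12 arrays that differ in diet and genotype and may share sampling conditions, with no test. Bcl6 fell into separate clusters of arrays, so no pooled correlation with another member is given for it.

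**Figure D3:**
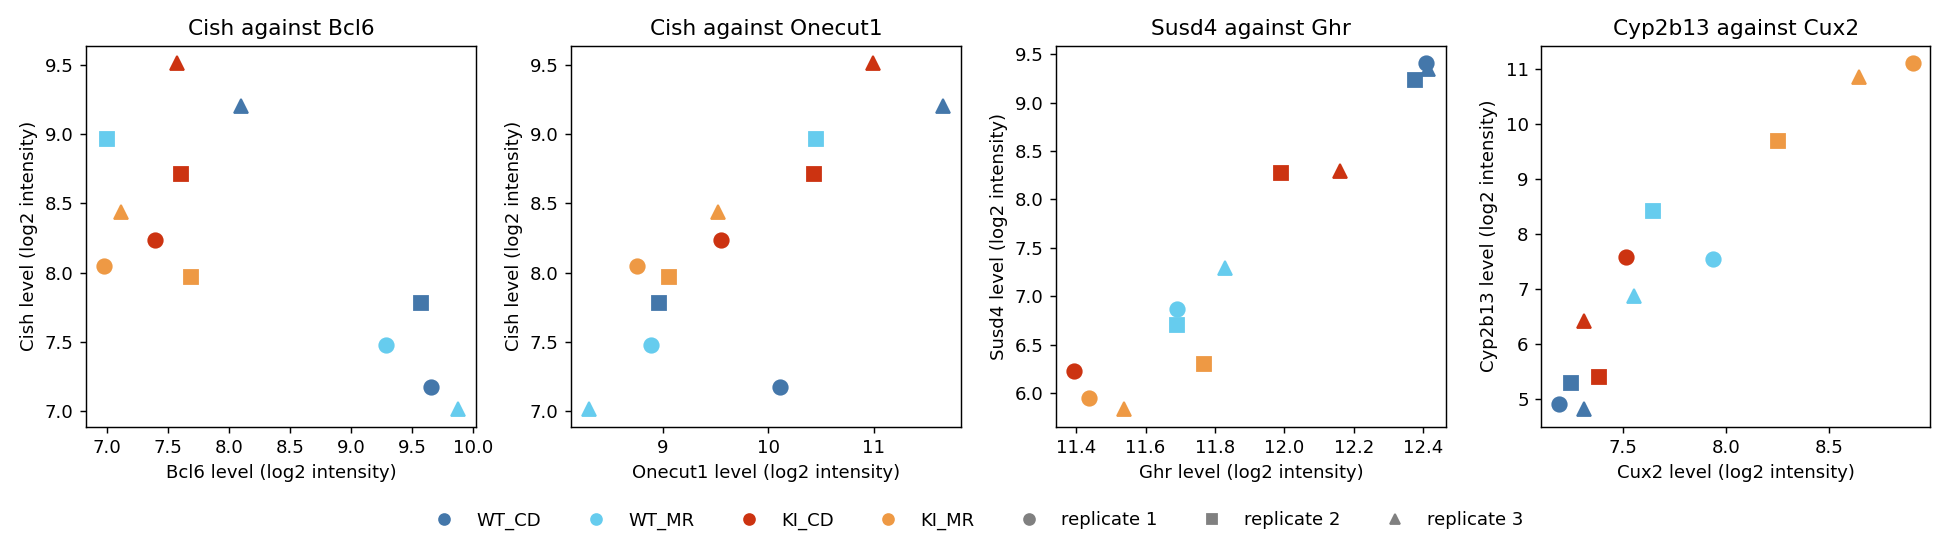
Log2 levels of gene pairs in the 12 arrays: Cish against Bcl6, Cish against Onecut1, Susd4 against Ghr and Cyp2b13 against Cux2. Colour is the group and shape the replicate number. The 4 wild-type arrays with Bcl6 at 625 units or more have the lowest Cish, the 3 WT_CD arrays have the highest Ghr and Susd4, and the 3 KI_MR arrays have the highest Cux2 and Cyp2b13.

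Genes with the most similar pattern were sought among 9661 genes above the median level, as the 3 highest Pearson correlations over the 12 arrays. For Cux2 these were the female-biased P450 gene Cyp2b13 (0.944), Tspyl2 (0.936) and Zbtb18 (0.924), with 0.537, 0.482 and 0.636 left after subtracting the group means. For Ghr they were Susd4 (0.970), Slc15a5 (0.957) and the major urinary protein gene Mup21 (0.952), and Susd4 kept 0.948 within groups. For Bcl6 they were Tfec (0.883), the properdin gene Cfp (0.878) and the folate receptor gene Folr2 (0.873), over arrays that form separate clusters. For Cish they were Vps52 (0.899), Efhd2 (0.878) and Acp6 (0.829). For Onecut1 they were Tob1 (0.874), Hopx (0.842) and Gpat4 (0.841), and for Socs2 Tut4 (0.810), Cryz (0.808) and Slc12a2 (0.798). Jak2 was most like Zfp51 (0.970), Mettl14 (0.956) and Relch (0.953). Stat5b was most like Ciao2a (0.928), Nr5a2 (0.925) and Mfsd14b (0.910), and Stat5a like Gsc (0.807), Oplah (0.772) and Fzd6 (0.771). The highest of 9661 correlations over 12 arrays are high by selection.

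No signalling gene at the receptor passed in the main fit, neither the members Ghr and Jak2 nor the genes listed beside them. Of 18 listed kinases, adaptors, phosphatases and inhibitors 17 were measured, and 0 passed in any comparison by limma, with 4 at an unadjusted p under 0.05 in KI_CD against WT_CD (11.2% of all genes) and a median of 0.14 there, against -0.02 over all genes. Those with the smallest p were Stat3, a transcription factor of cytokine signalling (0.64 ± 0.18 in KI_CD against WT_CD, adjusted p = 0.216), its inhibitor Socs3 (0.62 ± 0.18), the phosphatase gene Ptpn2 (0.41 ± 0.13) and Jak1 (0.24 ± 0.09 in KI_MR against WT_MR), and none of them passed.

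Of 10 listed GH and STAT5 dependent genes 8 were measured. By limma 1 was lower for genotype and 1 for diet, each averaged over the other factor, beside 0.838% and 0.602% of all genes. None passed in the comparisons with WT_CD, where 3 had an unadjusted p under 0.05 in KI_CD (11.2% of all genes) and 5 in WT_MR (8.19% of all genes). In those comparisons 1 of 8 was above 0, with medians of -0.40 and -0.53, beside 8538 and 9403 of all 19938 genes above 0. The gene above 0 was Fgf21 in both, at 0.37 in KI_CD (limma adjusted p = 0.736) and 1.70 in WT_MR (adjusted p = 0.173). Cyp7b1 and Cyp2d9 are also on the male-biased list below, so the lists are not separate. Cyp8b1, which encodes a bile acid enzyme, was lower in knock-in liver averaged over diets (-2.03 ± 0.43, limma adjusted p = 0.0342), and the cytokine receptor gene Lifr was lower on the restricted diet averaged over genotypes (-0.73 ± 0.15, adjusted p = 0.0465). The Cyp8b1 call ended without WT_CD replicates 1 or 2, WT_MR replicates 1 or 2, KI_CD replicates 2 or 3, or KI_MR replicate 3, with adjusted p up to 0.0921, and the Lifr call ended without any array except WT_CD replicate 2 and KI_CD replicate 1, with adjusted p up to 0.117. Without KI_CD replicate 1 the counts were 3 for genotype and 4 for diet. The epidermal growth factor receptor gene Egfr (-0.96 ± 0.22 for diet, adjusted p = 0.0712) and the oxysterol hydroxylase gene Cyp7b1 (-1.42 ± 0.37 for genotype, adjusted p = 0.0704) did not pass.

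Igf1, the hormone gene that GH induces in liver, and Igfals, its binding partner in blood, are classical readouts of the pathway. Both belong to the 8 measured genes of the list just described and are given singly for that reason. Igf1 ranged from 4743 to 5254 units in WT_CD, 4061 to 4684 in WT_MR, 4430 to 5286 in KI_CD and 3890 to 4772 in KI_MR. WT_CD lay above WT_MR, and the other pairs of groups overlapped. The diet difference averaged over genotypes was -0.17 ± 0.07 (limma adjusted p = 0.337) and the genotype difference -0.02 ± 0.07. Igfals ranged from 376 to 1010 units with overlap of all groups.

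Sex-biased liver genes lie downstream of the GH pattern. Of 22 listed male-biased genes 18 were measured, 0 were above 0 in KI_CD or in WT_MR against WT_CD, and the medians were -1.90 and -1.96, against -0.02 and -0.0042 over all genes. Of 21 female-biased genes 15 were measured, with medians of 0.87 (14 above 0) and 0.93 (15 above 0) in the same 2 contrasts. These contrasts share the WT_CD arrays, and 8538 and 9403 of all 19938 genes were above 0 in them. Between KI_MR and WT_MR the medians were -0.42 and 0.26, and between KI_MR and KI_CD -0.98 and 0.64. The lists were drawn up with earlier results of these arrays known and are no independent evidence of direction.

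By limma 9 of 18 male-biased genes fell with restriction averaged over genotypes, where 0.602% of all genes fell, and 8 were lower in knock-in liver averaged over diets, where 0.838% of all genes were. The omega-hydroxylase gene Cyp4a12a was lower for genotype (-3.83 ± 0.30, adjusted p = 0.000337) and for diet (-1.97 ± 0.30), as were Cyp4a12b (-3.64 and -2.20) and the vaspin gene Serpina12 (-1.29 and -1.16). For Serpina12 these averages cover unequal parts: it was lower than WT_CD in KI_CD (-2.29 ± 0.24, adjusted p = 0.00653) and WT_MR (-2.16 ± 0.24, adjusted p = 0.00383), whereas KI_MR differed by -0.16 from KI_CD (adjusted p = 0.999) and by -0.28 from WT_MR (adjusted p = 0.600). Its interaction of 2.01 ± 0.35 did not pass (adjusted p = 0.325, unadjusted p = 0.000114). The fatty acid elongase gene Elovl3 was lower for genotype (-3.83). Cyp4a12a and Cyp4a12b are close paralogs and could share signal, but are counted separately here. For diet the complement genes C6 (-2.15) and C8a (-1.61), the steroid dehydrogenase gene Hsd3b5 (-4.60) and Mup21 (-2.03) were lower. The diet differences of Hsd3b5 were -6.68 in wild-type and -2.51 in knock-in liver (adjusted p = 0.407), and those of Mup21 -3.09 and -0.98 (adjusted p = 0.665). In KI_CD Hsd3b5 read 48, 688 and 766 units, the 48 in replicate 1, and in KI_MR 79, 54 and 32. No fit of its knock-in difference without KI_CD replicate 1 is given. Hsd3b5 was at 2926 to 4859 units in WT_CD and at 36, 38 and 46 in WT_MR, where the dimmest 25% of genes end at 45 to 51 units depending on the array. No detection call was used here, so whether a group at that level lay above background is not known, and differences against it are between measured intensities only. This also touches Hsd3b5 and Elovl3 in KI_CD replicate 1 (Elovl3 at 38 units, against 150 and 128 in its group). It touches Serpina12 outside WT_CD, and Hsd3b5, Elovl3, Cyp4a12a and Cyp4a12b in KI_MR. These named average calls held with each array left out. The count for diet was 8 to 14 with each array left out, the latter without KI_CD replicate 1, and the count for genotype fell to 4 without WT_CD replicates 1 or 3 or KI_MR replicate 3, and to 5 without WT_MR replicates 1 or 2 or KI_MR replicates 1 or 2.

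Female-biased genes were higher in 6 of 15 cases for diet and 3 of 15 for genotype by limma, beside 0.607% and 1.98% of all genes. Cyp2b9, a female-biased P450 gene, rose by 2.76 ± 0.33 for diet (adjusted p = 0.00302) and by 2.46 ± 0.33 for genotype (adjusted p = 0.00722), averages over unequal parts. It was at 766 units or less in the WT_CD arrays and at 5508 units or more in the 9 others. Against WT_CD it was higher in KI_CD (4.59 ± 0.47, adjusted p = 0.00653) and WT_MR (4.89 ± 0.47, adjusted p = 0.00135), whereas KI_MR differed by 0.64 from KI_CD (adjusted p = 0.876) and by 0.34 from WT_MR (adjusted p = 0.744). Its interaction of -4.25 ± 0.66 did not pass (adjusted p = 0.293, unadjusted p = 4.41e-05). Cyp2b13 was at 28 to 39 units in WT_CD and 821 to 2199 in KI_MR, with 3.35 ± 0.38 for diet and 2.20 ± 0.38 for genotype, the latter call ending without WT_CD replicate 1 (adjusted p = 0.0565) or KI_MR replicate 3 (0.0558). It read 192, 42 and 85 units in KI_CD and 187, 342 and 117 in WT_MR. Against WT_CD neither KI_CD (1.46, limma adjusted p = 0.364) nor WT_MR (2.61, 0.0848) passed. KI_MR passed against KI_CD (4.08, 0.0193) and WT_MR (2.93, 0.0486), calls that ended in 4 and 9 of 12 fits. The WT_CD arrays and KI_CD replicate 2 lay in the dimmest 25% of genes, so these too are differences of measured intensities. Whether Cyp2b13 in those arrays lay above background is not known. Tox, an HMG-box factor gene, was higher for genotype (0.92 ± 0.12). Cyp2b9 and Cyp2b13 are close paralogs and could share signal. The other diet calls were the peroxisomal transporter gene Abcd2 (1.26), Acot3 (1.58), Fmo2 (1.34) and the co-repressor gene Trim24 (0.79). The count for diet fell to 2 without WT_CD replicate 1 or KI_MR replicate 1 and to 3 without WT_CD replicate 3, WT_MR replicate 1 or KI_CD replicate 2. The call of Abcd2 ended without WT_CD replicate 1 or KI_MR replicate 1, and that of Acot3 also without WT_CD replicate 3, WT_MR replicate 1 or KI_CD replicate 2. The call of Trim24 ended without any array other than WT_MR replicate 3 and KI_CD replicate 1, and that of Fmo2 held without these as well as without KI_CD replicate 3 or KI_MR replicate 2.

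**Figure D4:**
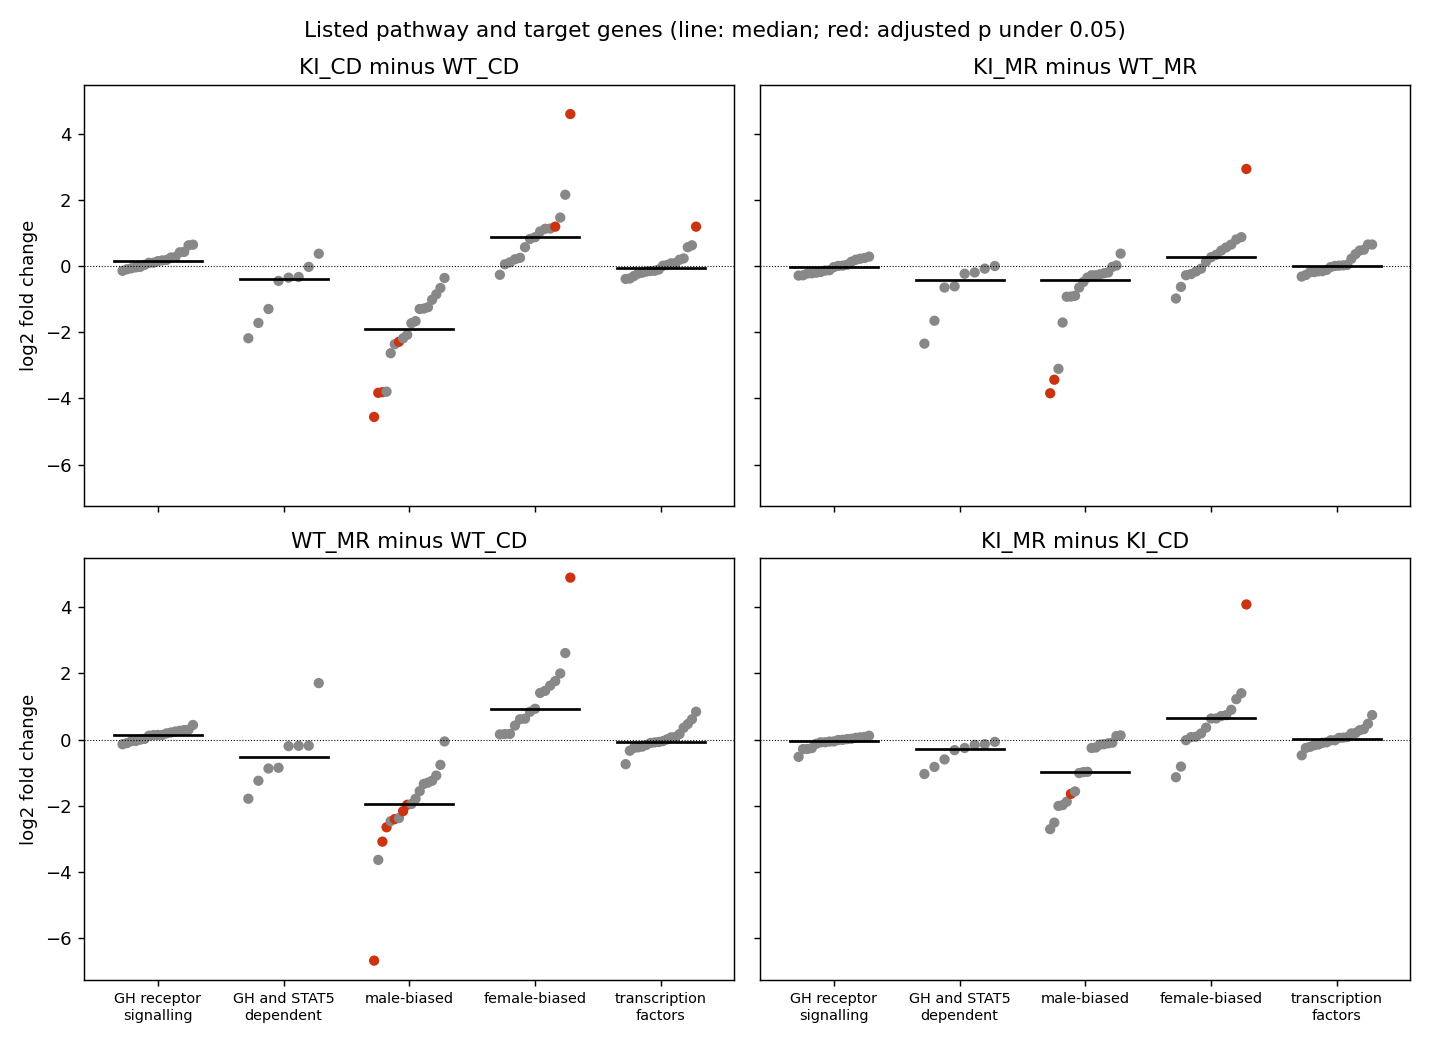
Log2 fold change of each measured gene in 5 lists (GH receptor signalling, GH and STAT5 dependent genes, male-biased genes, female-biased genes, liver transcription factors) in the 4 pairwise comparisons. Points are genes ordered by value, the line is the median, and red marks an adjusted p under 0.05 over all genes. In KI_CD minus WT_CD and in WT_MR minus WT_CD the male-biased medians lie at -1.90 and -1.96 and the female-biased ones at 0.87 and 0.93.

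Of 20 other liver transcription factors 18 were measured, with medians between -0.06 and 0.01 in the 4 pairwise comparisons. Those that passed by limma were also on the female-biased list: Tox, in KI_CD against WT_CD (1.19 ± 0.17, adjusted p = 0.0308, lost in 7 of 12 fits: without any WT_CD array, WT_MR replicate 1, KI_CD replicates 2 or 3, or KI_MR replicate 1) and for average genotype, and Trim24 for average diet. Cux1, the paralog of Cux2, went the other way without passing: it was at 210 to 239 units in WT_CD and 161 to 175 in KI_MR, and the average diet difference was -0.25 ± 0.05 (adjusted p = 0.0568). The estrogen receptor gene Esr1 read 231 to 304 units in WT_CD, 295 to 469 in WT_MR, 407 to 433 in KI_CD and 268 to 355 in KI_MR. Its diet difference was 0.47 ± 0.16 in wild-type and -0.48 ± 0.16 in knock-in liver, and the interaction of -0.94 ± 0.23 did not pass (adjusted p = 0.966).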

How the data were processed

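The authors deposited linear intensities per probe set, whole numbers from 10 to 20042; their background correction and scaling are not given in the sources used here. Of 35512 probe sets, 21789 carried 1 symbol in the platform annotation, 1621 several and 12102 none. For each of 19938 genes the probe set with the highest mean was used, and log2 values were analysed without further scaling. A linear model of the 4 group means was fitted over the 12 arrays with limma 3.58.1 under R 4.3.3. Variances were moderated by empirical Bayes (8 residual and 3.14 prior degrees of freedom). The p values are two-sided and were adjusted by Benjamini-Hochberg over every gene, with a threshold of 0.05. An exact permutation of 3 against 3 arrays cannot give a p under 0.1. The script was tested on simulated data. Named are all members, the list genes that passed (at most 8 per list, filled to 4 by smallest p), Igf1, Igfals and Fgf21, and the 3 genes most like each member. Members and lists were chosen with earlier results of these data known. Tables and figures used Python 3.11.15, pandas 2.3.3 and matplotlib 3.10.9. The labels give no batch. The alternatives tried were averaging probe sets, median centring, quantile normalization, dropping the dimmest 25% of genes, a trend and robust prior, array weights, no moderation, the compared groups alone, a replicate block and each array left out. For the lists they were added after seeing the data.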

Additional observations from a re-analysis of the deposited data

How the results depend on the processing

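With 3 arrays per group, the number of members changed depended on how the spread was estimated. It went from 1 to 0 in KI_MR against KI_CD and in KI_MR against WT_MR both without moderation and with the compared groups alone, and to 0 for average genotype without moderation. With the compared groups alone it was 1 in WT_MR against WT_CD (Ghr). Array weights, which put a weight of 16.7 on WT_MR replicate 1 against 0.29 to 1.45 on the others, gave 3 in WT_MR against WT_CD, 3 in KI_MR against WT_MR, 4 for average genotype and 2 for average diet. With each array left out the number ranged from 0 to 1 in KI_MR against KI_CD, in WT_MR against WT_CD and in KI_MR against WT_MR, from 0 to 2 for average genotype and from 1 to 2 for average diet. It was 0 throughout for KI_CD against WT_CD and the interaction.

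Replicate numbers were shared between groups, but the labels give no batch, so the main model did not take the numbers to pair the samples. As a hint of pairing from the data, 9 of 18 same-numbered pairs had a correlation of deviations over 0.1, and 11 of 12 arrays correlated best with their own number. What the numbers stand for is not known. With the replicate block the number of members changed was the same in every comparison, Cux2 had adjusted p = 0.0166 in KI_MR against KI_CD and 0.00525 for average diet, and the count over all genes went from 94 to 177 in KI_MR against WT_MR and from 561 to 960 for average genotype. Among the list genes the block ended the calls of Tox in KI_CD against WT_CD (adjusted p = 0.0684), Cyp4a12b in WT_MR against WT_CD (0.0658), and Fmo2 (0.0523) and Trim24 (0.0706) for average diet.

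The log2 differences that changed sign belonged to members that had not passed in those comparisons. Median centring gave Stat5a 0.0078 in KI_CD against WT_CD, Stat5a 0.024 and Onecut1 0.019 in average genotype. Array weights gave Stat5a 0.0085 in KI_CD against WT_CD, Jak2 -0.0069 and Stat5b -5e-04 in KI_MR against KI_CD, Jak2 -0.053 and Stat5a -0.12 and Bcl6 0.059 in WT_MR against WT_CD, Onecut1 0.14 in KI_MR against WT_MR, Jak2 0.046 and Bcl6 -0.41 in the interaction, Stat5a 0.11 and Onecut1 0.34 in average genotype, Jak2 -0.03 and Stat5a -0.022 in average diet. Quantile normalization gave Socs2 0.005 in KI_MR against KI_CD, Jak2 -0.0049 in WT_MR against WT_CD, Stat5a -0.027 in KI_MR against WT_MR, Jak2 0.036 and Stat5b 0.010 in the interaction. The mean of probe sets gave Socs2 0.040 in KI_MR against KI_CD, Socs2 0.0061 in KI_MR against WT_MR. Leaving out each array in turn, KI_CD against WT_CD ranged from -0.12 to 0.059 for Stat5a, from -0.55 to 0.79 for Onecut1. In the same fits, KI_MR against KI_CD ranged from -0.049 to 0.043 for Jak2, from -0.056 to 0.24 for Stat5b, from -0.31 to 0.36 for Socs2. WT_MR against WT_CD ranged from -0.12 to 0.12 for Jak2, from -0.065 to 0.14 for Stat5a, from -0.81 to 0.34 for Cish, from -0.97 to 0.47 for Bcl6. KI_MR against WT_MR ranged from -0.095 to 0.11 for Stat5a, from -0.31 to 0.36 for Socs2, from -0.069 to 0.91 for Cish, from -0.56 to 0.52 for Onecut1. The interaction ranged from -0.11 to 0.13 for Jak2, from -0.077 to 0.13 for Stat5a, from -0.19 to 0.10 for Stat5b, from -1.01 to 0.14 for Cish, from -0.74 to 0.70 for Bcl6, from -0.89 to 0.45 for Onecut1. Average genotype ranged from -0.057 to 0.047 for Stat5a, from -0.33 to 0.34 for Onecut1. Average diet ranged from -0.058 to 0.064 for Jak2, from -0.62 to 0.10 for Bcl6. The cause was not tested. Without moderation the list calls that ended included the average diet calls of Cyp4a12a, Cyp4a12b, Serpina12, Hsd3b5, Mup21 and C8a. Those of Lifr, Abcd2, Acot3, Fmo2 and Trim24 ended too, as did the average genotype calls of Cyp8b1 and Cyp2b13. In KI_CD against WT_CD 0 of all genes passed without moderation, with adjusted p = 0.0995 for Serpina12 and Cyp2b9 and 0.151 for Tox. Limma on the compared groups alone gave adjusted p = 0.152 for Serpina12 and Tox and 0.168 for Cyp2b9 there.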
